A study of Mus musculus with 7 samples.

Results

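The chaperones and folding enzymes of the endoplasmic reticulum (ER) lumen led by Hspa5 are described here, as 10 genes measured in microglia-enriched RNA from the mouse dorsal hippocampus. They are Hspa5, Hsp90b1, Calr, Hyou1, Dnajb11, Sdf2l1, Pdia4, Pdia6, Creld2 and Manf, and they were found by symbol as 10 of the 55401 gene identifiers of the count table. The 10 genes were chosen on their library-size-scaled counts in the ATG7 libraries against the EYFP libraries, so that contrast is given for them as a description, without a test. All 10 passed the filter on low counts that 19199 genes passed.

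All mice were C57BL/6, labelled adult male and 6 to 8 weeks old, and the dorsal dentate gyrus of each was injected with AAV-RAM-Cre, a virus that places Cre under an activity-dependent promoter so that recombination marks neurons active during an experience. In the EYFP group (4 libraries) it was given with AAV-Dio-EYFP, which yields a fluorescent protein after recombination (EYFP 1 to 4), and in the ATG7 group (3 libraries) with AAV-Dio-Atg7-Flag, which yields a tagged form of the autophagy protein ATG7 (ATG7 1 to 3). The transgenes were thus directed to neurons, whereas the RNA came from cells enriched with CD11b beads from the hippocampus. The libraries are named as separate replicates but not stated to come from separate mice, and p-values measure the spread between these libraries.

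Proteins that enter the ER are folded in its lumen by an Hsp70-type ATPase with its helpers, an Hsp90-type chaperone, lectin chaperones that read sugar chains, and enzymes that form and exchange disulfide bonds. When unfolded proteins accumulate, the sensors ATF6, IRE1 and PERK start the unfolded protein response (UPR), in which transcription of many of these genes rises. A promoter element bound by ATF6 together with NF-Y, the ER stress response element (ERSE), was first described in genes of this class. Microglia, the resident macrophages of the brain, make large amounts of receptors and secreted proteins that pass through the ER.

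Because ERSE is a property of the sequence and not of these counts, it was searched for in RefSeq promoter windows of 300 bases (250 before to 50 after the start, GRCm38.p6), on both strands, as CCAAT, any 9 bases, then CCACG. Windows were present for 8 of the 10 genes and 5 of those 8 held an exact match, against 37 of 27025 genes (0.137%) and 39 of 32851 windows (0.119%) in the whole table. Because the element was first described in genes of this class, these shares are a description and no independent evidence. The 5 genes with a match were Hspa5, Hsp90b1, Calr, Pdia6 and Creld2, and Hsp90b1 held 2 matches. The 6 matches are printed below with 5 bases on each side, 5′ to 3′ on the strand that reads CCAAT first, with the CCAAT and CCACG boxes in capitals, because they show how alike the boxes are and how different the bases between them.
Hspa5 (chr2:34772020-34772048, plus strand): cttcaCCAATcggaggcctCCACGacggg
Hsp90b1, far match (chr10:86705633-86705661, minus strand): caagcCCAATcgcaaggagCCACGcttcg
Hsp90b1, near match (chr10:86705528-86705556, plus strand): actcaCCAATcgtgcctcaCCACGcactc
Calr (chr8:84847070-84847098, plus strand): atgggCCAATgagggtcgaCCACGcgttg
Pdia6 (chr12:17266486-17266514, plus strand): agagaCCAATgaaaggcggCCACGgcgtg
Creld2 (chr15:88819515-88819543, minus strand): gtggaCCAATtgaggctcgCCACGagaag

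The matches lay between 212 bases and 47 bases before the RefSeq starts. The Hspa5 match spanned positions -65 to -47 and read in the direction of the gene. These positions count from the RefSeq start at 34772090. The gene as annotated by GENCODE starts earlier, at 34771970, so the match lies inside that annotated span. In Hsp90b1 the far match, at -212 to -194, read with the gene and the near one, at -107 to -89, against it. Calr (-162 to -144) and Creld2 (-126 to -108) carried the element against the direction of the gene, and Pdia6 (-98 to -80) carried it with the gene. The stretch of 185 bases upstream of the annotated Hsp90b1 gene (chr10:86705510-86705694, minus strand, the strand of the gene) is printed because it holds both of its elements. Capitals again mark the boxes, and the near element appears as its reverse complement.
Hsp90b1 upstream: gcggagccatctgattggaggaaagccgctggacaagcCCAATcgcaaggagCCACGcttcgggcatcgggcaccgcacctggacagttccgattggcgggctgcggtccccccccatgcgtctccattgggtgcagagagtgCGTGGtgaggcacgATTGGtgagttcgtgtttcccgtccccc

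Of the other windows, that of Dnajb11 held an ERSE-II (ATTGG, 1 base, CCACG) at +8 to +18, a motif found in 12 of all windows (0.0365%), Herpud1 among them. With 1 mismatch allowed in the boxes, ERSE was found in 6 of the 8 genes, Pdia4 being added, and in 1.5% of all windows. No UPRE core (TGACG followed directly by TGG) was found in the 8 windows, against 0.676% of all windows. Sdf2l1 had none of these matches. Among 97 genes with a window in 5 lists of other ER genes, 4 held an exact ERSE: Canx, Derl3, Dnajc3 and Syvn1. A match describes letters in a window, and binding was not measured.

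**Figure D1:**
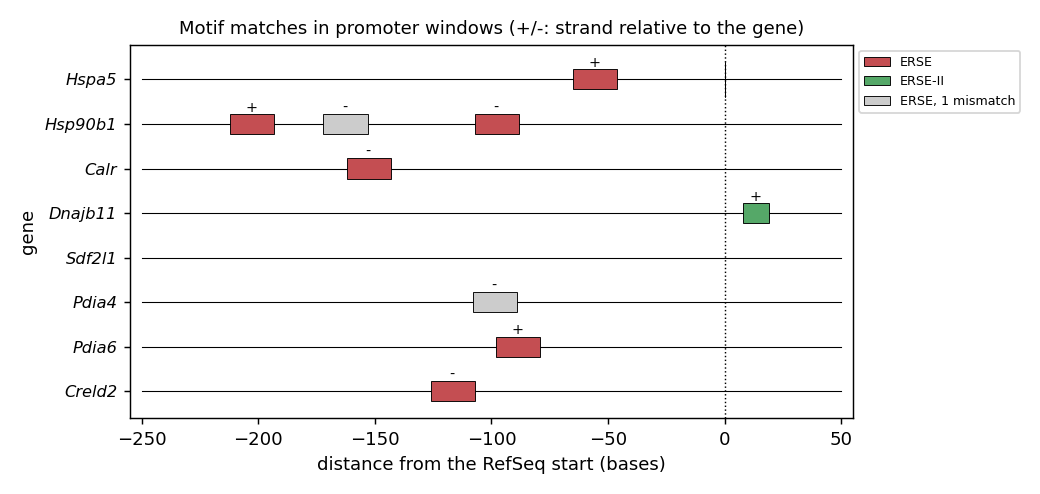
Motif matches in the promoter windows of the 8 genes with a RefSeq window, by distance from the RefSeq start in bases. Red boxes are exact ERSE matches (5 genes, 2 of them in Hsp90b1), the green box is the ERSE-II of Dnajb11, grey boxes match ERSE with 1 mismatch, and the sign above a box gives its strand relative to the gene.

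The libraries held 35934210 to 55217119 counts, and a floor of 3 counts stood at 0.0543 to 0.0835 CPM (counts scaled to the library size). Marker genes of microglia summed to 23668 to 28617 CPM in EYFP and 23485 to 28700 in ATG7, and choroid plexus genes, led by Ttr, to 55184 to 72794 and 46718 to 61590, so the enriched cells were not microglia alone. EYFP 3 stood apart from its group: Xist, the RNA of the inactive X chromosome, was at 938.5 CPM against 0.327 to 0.574 in the other EYFP libraries, and the Y-linked Ddx3y was at 27.6 against 153.0 to 168.7. Atg7 was at 35.6 ± 1.68 CPM in EYFP (SD, n = 4) and 34.9 ± 2.76 in ATG7 (SD, n = 3), and since the transgene was directed to neurons this does not check the labels. With edgeR's quasi-likelihood test, 145 genes (0.755%) had a Benjamini-Hochberg adjusted p under 0.05, 132 of them (0.688% of genes) higher in ATG7.

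The ER-lumen chaperone genes were higher in every ATG7 library than in every EYFP library, in 10 of 10 genes, where 6.33% of all genes tested were arranged that way. Their log2 fold changes ran from 0.26 (Pdia4) to 0.66 (Sdf2l1), with a median of 0.48 against -0.0037 over all genes tested. Because the genes were selected on this contrast, the count and the median are no evidence for it. Without EYFP 3 the median was 0.49, and without ATG7 1 it was 0.39.

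Together the 10 genes took 0.349%, 0.344%, 0.358% and 0.328% of all counts in EYFP 1 to 4, against 0.538%, 0.423% and 0.462% in ATG7 1 to 3. The EYFP libraries lay close together and the ATG7 libraries were spread out above them. Their summed level was 3431 ± 142 CPM in EYFP (SD, n = 4) and 4782 ± 563 in ATG7 (SD, n = 3). In RNA from a bulk of cells, more cells of a type and more RNA per cell cannot be told apart.

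**Figure D2:**
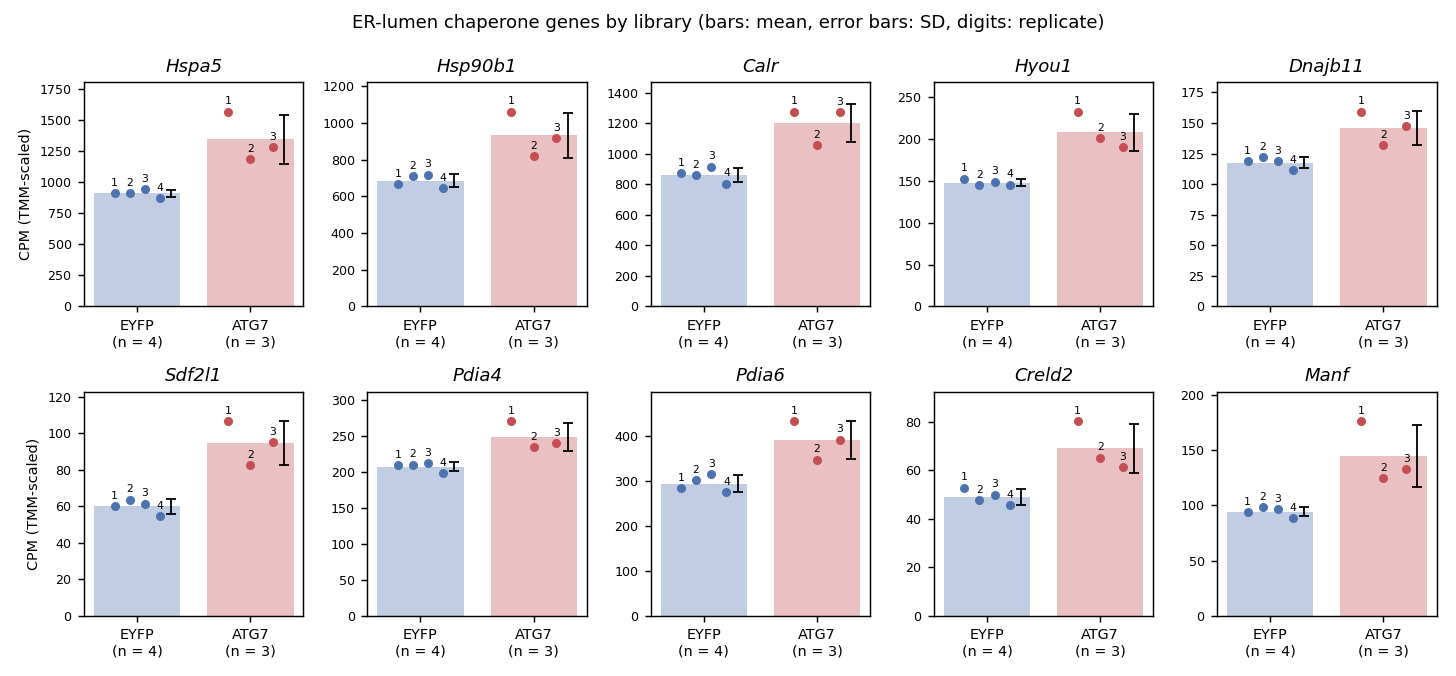
TMM-scaled CPM of the 10 genes in each library, with bars for the group mean, error bars for the SD and digits for the replicate number (EYFP n = 4, ATG7 n = 3). In every panel the 3 ATG7 points lie above the 4 EYFP points, and ATG7 1 is the highest.

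Hspa5 encodes BiP, the Hsp70-type chaperone of the ER lumen that also holds the UPR sensors inactive (chromosome 2, 34771970 to 34777547, plus strand, GRCm38). Its level was 912.2, 914.8, 947.7 and 873.8 CPM in EYFP 1 to 4. In ATG7 1 to 3 it was 1571, 1188 and 1286 CPM, and the lowest ATG7 library was 1.25 times the highest EYFP library. The mean was 912.1 ± 30.2 CPM in EYFP and 1348 ± 199 in ATG7, a 1.48-fold difference (log2 0.56, SE 0.10).

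Another 3 genes encode helpers of BiP. Hyou1, a large Hsp70-related protein that exchanges nucleotide on BiP (chromosome 9, 44379490 to 44392369), was at 152.6, 144.4, 148.9 and 145.4 CPM in EYFP 1 to 4. In ATG7 1 to 3 it was at 232.6, 200.5 and 190.0 CPM, clear of the EYFP values, with a log2 fold change of 0.49 (SE 0.08). It had the narrowest EYFP spread of the 10 genes, a coefficient of variation of 2.5%.

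Dnajb11, a J-domain co-chaperone that passes substrates to BiP (chromosome 16, 22857845 to 22879634), was at 118.6, 122.4, 118.6 and 111.2 CPM in EYFP and 131.8 to 159.4 CPM in ATG7. The gap was the smallest of the 10, with the lowest ATG7 library 1.08 times the highest EYFP library, and the log2 fold change was 0.31 (SE 0.08). Sdf2l1, a partner of Dnajb11 in the BiP cycle (chromosome 16, 17130138 to 17132383), gave 60.0, 63.6, 61.4 and 54.4 CPM in EYFP 1 to 4, against 106.7, 82.3 and 95.0 CPM for ATG7. This was the largest gap, 1.30 times, and the largest log2 fold change, 0.66 (SE 0.09).

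Hsp90b1 is the Hsp90-type chaperone of the lumen, needed for folding of Toll-like receptors and integrins (chromosome 10, 86690209 to 86705509, minus strand). It was at 667.4, 711.8, 719.2 and 646.7 CPM in EYFP 1 to 4 and at 1062, 818.6 and 916.1 CPM across ATG7 1 to 3, with a log2 fold change of 0.44 (SE 0.10). Calr, the soluble lectin chaperone calreticulin, which also binds calcium (chromosome 8, 84841850 to 84846934, minus strand), was at 871.2, 857.8, 914.4 and 803.7 CPM in EYFP. In ATG7 1 to 3 it was at 1276, 1054 and 1271 CPM, and its log2 fold change was 0.48 (SE 0.10). Calr was the gene in which ATG7 1 and ATG7 3 lay nearest to each other.

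Pdia4 and Pdia6 are protein disulfide isomerases. Pdia4 (chromosome 6, 47796141 to 47813430) had the smallest difference, from 209.1, 209.9, 211.7 and 197.9 CPM in EYFP 1 to 4 to 270.5, 233.8 and 239.9 CPM in ATG7 1 to 3 (log2 fold change 0.26, SE 0.08). Pdia6 (chromosome 12, 17266545 to 17284770) went from 285.3, 302.2, 315.9 and 275.7 CPM to 434.2, 348.0 and 392.5 CPM (0.41, SE 0.09). In both genes the ATG7 libraries kept clear of the EYFP libraries, by a factor of 1.10.

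Creld2, a cysteine-rich ER protein with EGF-like domains (chromosome 15, 88819646 to 88826683), was at 52.8, 47.6, 49.9 and 45.5 CPM in EYFP 1 to 4 and at 80.3, 65.3 and 61.5 CPM for ATG7, with a log2 fold change of 0.50 (SE 0.10). Manf, an ER protein that binds BiP and can be secreted as a trophic factor (chromosome 9, 106838312 to 106891979, minus strand), was at 94.1, 98.2, 96.6 and 88.4 CPM in EYFP. Its ATG7 values were 176.3, 124.3 and 132.5 CPM, the widest ATG7 spread of the 10 genes (coefficient of variation 19.4%), and its log2 fold change was 0.61 (SE 0.11). The annotated span of Manf overlaps Dcaf1 on the other strand and Rbm15b on the same one. Whether reads were counted by strand is not given in the sources used here. Dcaf1 was at 38.5 CPM in EYFP and 37.2 in ATG7, and Rbm15b at 48.4 and 49.95. Hsp90b1 likewise overlaps 1810014B01Rik (6.35 CPM in EYFP and 5.62 in ATG7), Pdia6 overlaps Atp6v1c2 (0.211 and 0.259 CPM), and Dnajb11 overlaps the antisense gene Gm30505, which did not pass the filter.

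The order of levels, per kilobase of annotated exon, was read in the EYFP libraries. The divisor was the joined length of all annotated exons of a gene, 3524 bases for Manf and 7230 for Hyou1. It can exceed the length of the transcript expressed, so the order belongs to this measure and is not one of transcript levels. Calr was highest at 299 ± 15.9 CPM per kb (SD, n = 4), then Hspa5 at 216 ± 7.15 and Hsp90b1 at 170 ± 8.66. Pdia4 (86.3 ± 2.60) and Pdia6 (78.7 ± 4.77) followed, then Sdf2l1 (54.0 ± 3.52). Dnajb11 (36.4 ± 1.45) and Creld2 (35.8 ± 2.30) did not differ beyond their spread. Manf (26.8 ± 1.23) and Hyou1 (20.4 ± 0.51) were lowest. In ATG7, Pdia4 at 103 ± 8.19 and Pdia6 at 105 ± 11.5 CPM per kb (SD, n = 3) lay within each other's spread. By CPM before division by length, Hspa5, Hsp90b1 and Calr were above the 99.5th percentile of genes tested, and Creld2, the lowest, was at the 78.0th.

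The 10 genes shared parts of an order of libraries within each group. The order was read from the same values on which the genes were chosen, so it is a description. ATG7 1 was the highest ATG7 library in 10 of 10 genes, as it was for 30.4% of all genes tested. The lowest ATG7 library was ATG7 2 in 8 genes and ATG7 3 in the other two, Hyou1 and Creld2. ATG7 1 exceeded ATG7 2 by 1.16 times (Pdia4 and Hyou1) to 1.42 times (Manf). Within EYFP, EYFP 4 was the lowest library in 9 genes, against 21.1% of all genes, and EYFP 2 in Hyou1. The highest EYFP library was not shared: it was EYFP 3 in 5 genes, EYFP 2 in 3 and EYFP 1 in 2. The genes are not independent of each other, and these counts describe 7 libraries. The EYFP coefficients of variation ran from 2.5% to 6.5% and the ATG7 ones from 7.9% (Pdia4) to 19.4%.

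Of 10248 genes with a mean of at least 10 CPM, those closest to the mean profile of the 10 genes over the 7 libraries were searched by the root mean square difference of centred log2 CPM. Among the 5 closest were Hsp90ab1 (0.063), Hspa8 (0.067), P4ha1 (0.076) and Pdia3 (0.10), where the median gene lay at 0.27 and the 10 genes themselves at 0.033 to 0.11. Hsp90ab1 and Hspa8 are cytosolic chaperones of the Hsp90 and Hsp70 types, P4ha1 is a subunit of the collagen prolyl hydroxylase of the ER, and Pdia3 is the disulfide isomerase that works with calreticulin. Hsp90ab1 was at 947.1, 1039, 928.6 and 969.9 CPM in EYFP 1 to 4, against 1501, 1229 and 1297 CPM for ATG7. As in the ER genes, ATG7 1 was its highest library and the groups did not overlap. P4ha1, which is in none of the ER lists described below, had a log2 fold change of 0.51 (SE 0.08). These genes were chosen for likeness to a profile that includes the contrast, so no test is given for them here. Hsp90ab1, Hspa8 and Pdia3 also belong to gene lists described below. Their p-values there are no separate evidence for this likeness.

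**Figure D3:**
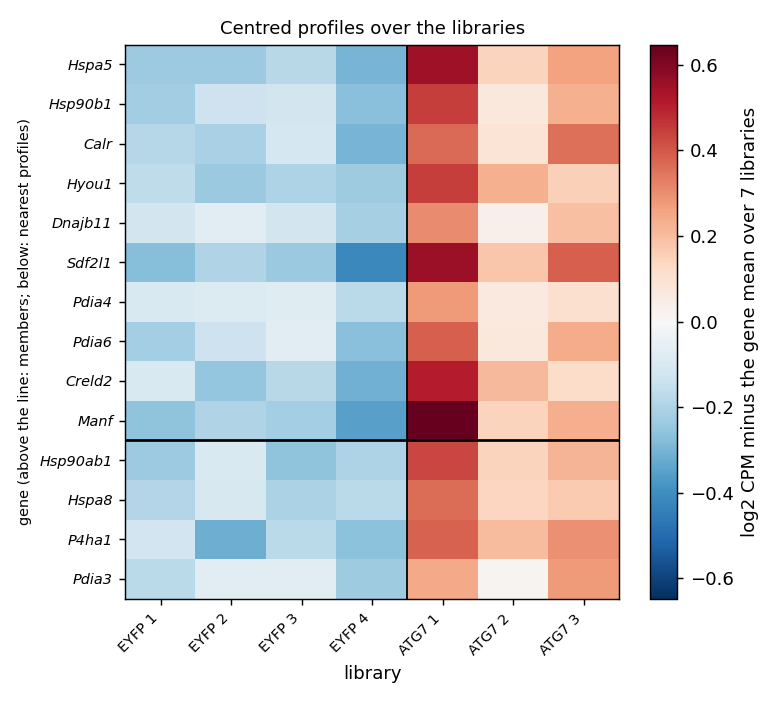
Log2 CPM of each gene minus its own mean over the 7 libraries (columns), for the 10 ER-lumen chaperone genes above the line and 4 of the 5 genes nearest to their mean profile below it. ATG7 1 is the highest ATG7 library in all 10 genes, and EYFP 4 is the lowest EYFP library in 9 of them.

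Other genes of the ER pathway had values centred near 0. The 10 genes were chosen on this contrast and are left out of these lists. Their distance from the lists is therefore partly set by that choice. In 5 lists with 118 genes tested, 0 had an adjusted p under 0.05 with edgeR, where 0.755% of all genes did, and 10 (8 higher, 2 lower) had an unadjusted p under 0.05, where 12% of all genes did. DESeq2 gave 3 (Uggt1, Pdia3 and Derl3, all higher). The median log2 fold change of the 118 was 0.04, with 73 above and 45 below 0, and groups did not overlap in 14 that were higher and 7 that were lower, where the shares over all genes were 6.33% and 4.91%.

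Among 32 other folding factors of the ER the median log2 fold change was 0.09. Groups did not overlap in 7 that were higher and 2 that were lower, where the shares over all genes were 6.33% and 4.91%. By edgeR 5 higher and 1 lower had an unadjusted p under 0.05, where 12% of all genes did. The smallest p belonged to Uggt1, the sensor that returns misfolded glycoproteins to the lectin cycle (0.23, SE 0.07, adjusted p = 0.174, edgeR). For 20 genes of ER-associated degradation the median was 0.03. Derl3, a retrotranslocation factor at 1.16 ± 0.22 CPM in EYFP and 2.65 ± 1.54 in ATG7, had a log2 fold change of 1.18 (SE 0.35, adjusted p = 0.183), or 0.62 without ATG7 1. The lists for translocation and N-glycosylation (24 genes, median 0.08) and for ER-to-Golgi transport (22 genes, median -0.000091) were led by Rpn1, an oligosaccharyltransferase subunit (0.15, adjusted p = 0.494), and Sec23a, a COPII coat subunit (-0.16, adjusted p = 0.477).

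The 20 sensors and transcription factors of the UPR had a median of 0.03, and Nfya, a subunit of NF-Y, had the smallest p (0.23, SE 0.10, adjusted p = 0.406, edgeR). Xbp1, whose spliced form is the factor made by IRE1, was at 198.3 ± 14.3 CPM in EYFP and 215.8 ± 11.0 in ATG7 (log2 0.12, 95% interval -0.05 to 0.30). Ddit3, the stress factor CHOP, was at 16.7 ± 2.01 and 17.1 ± 0.46 CPM (0.04, interval -0.19 to 0.27). Dnajb9, a BiP co-chaperone that holds back IRE1, was at 98.5 ± 7.36 and 96.9 ± 9.35 CPM (-0.02, interval -0.21 to 0.17). Herpud1, a scaffold of ER-associated degradation, was at 174.0 ± 2.01 and 178.7 ± 4.46 CPM (0.04, interval -0.10 to 0.18). Splicing of Xbp1 was not analysed here.

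**Figure D4:**
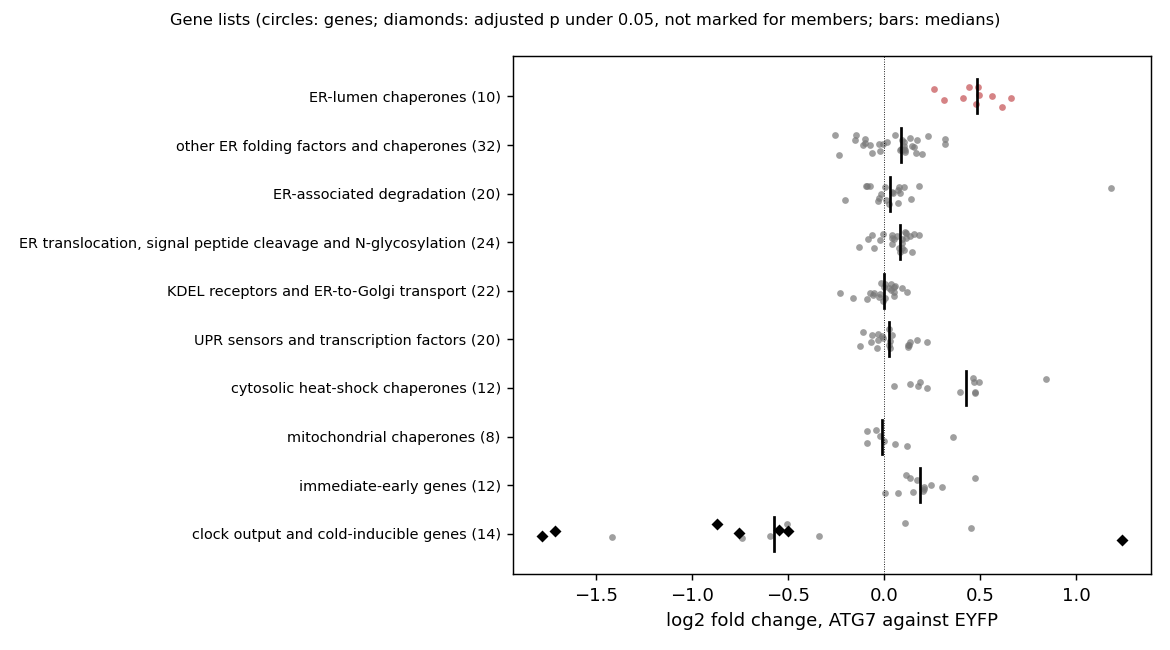
Log2 fold change of ATG7 against EYFP (x axis) for the 10 ER-lumen chaperone genes and for 9 pathway lists (rows, with the number of genes tested), with a black bar at each median. The 10 genes, chosen on this contrast and left out of the lists, lie at 0.26 to 0.66, and the 5 other ER lists are centred near 0. Black diamonds, shown for the lists alone, mark an adjusted p under 0.05.

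Each of the 10 genes was set beside relatives of related structure or function, in pairs written after the values had been seen and therefore not tested. The values that follow are log2 fold changes. For Hspa5, the cytosolic Hspa8 had 0.39 (95% interval 0.20 to 0.59) and the mitochondrial Hspa9 -0.09 (-0.29 to 0.11), against 0.56 for Hspa5. Beside Hsp90b1 at 0.44, the cytosolic Hsp90aa1 had 0.46 (0.12 to 0.81) and Hsp90ab1 0.47 (0.26 to 0.67). The mitochondrial Trap1 had 0.06 (-0.08 to 0.19). Without ATG7 1 the value of Hsp90aa1 was 0.22, and that of Hsph1, named next, was 0.29. Calr, at 0.48, has a membrane-bound counterpart in Canx, which went from 645.0 ± 31.8 CPM to 725.7 ± 26.7 CPM (0.17, interval -0.01 to 0.35). Hyou1, at 0.49, stood beside the cytosolic Hsph1 (0.50, interval 0.21 to 0.79) and Hspa4 (0.05, -0.12 to 0.22). Sil1, the other nucleotide exchange factor of BiP, had -0.11 (-0.30 to 0.07).

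The J-domain proteins differed in value: Dnajb11 had 0.31, the ER-resident Dnajc3 0.09, Dnajb9 -0.02 and Dnajc10 -0.15, and the cytosolic Dnajb1 0.19. Sdf2, the close relative of Sdf2l1, was at 64.0 ± 6.57 CPM in EYFP and 66.6 ± 4.62 in ATG7 (0.06, interval -0.14 to 0.25), where Sdf2l1 had 0.66. Among the disulfide isomerases Pdia3 had 0.32 (0.11 to 0.52) and P4hb 0.10 (-0.08 to 0.29), beside 0.26 and 0.41 in Pdia4 and Pdia6. Creld1 had 0.09 beside 0.50 in Creld2. Cdnf, the paralog of Manf, was low, at 1.64 ± 0.32 and 1.37 ± 0.09 CPM (-0.26, interval -0.75 to 0.24), beside 0.61 in Manf.

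**Figure D5:**
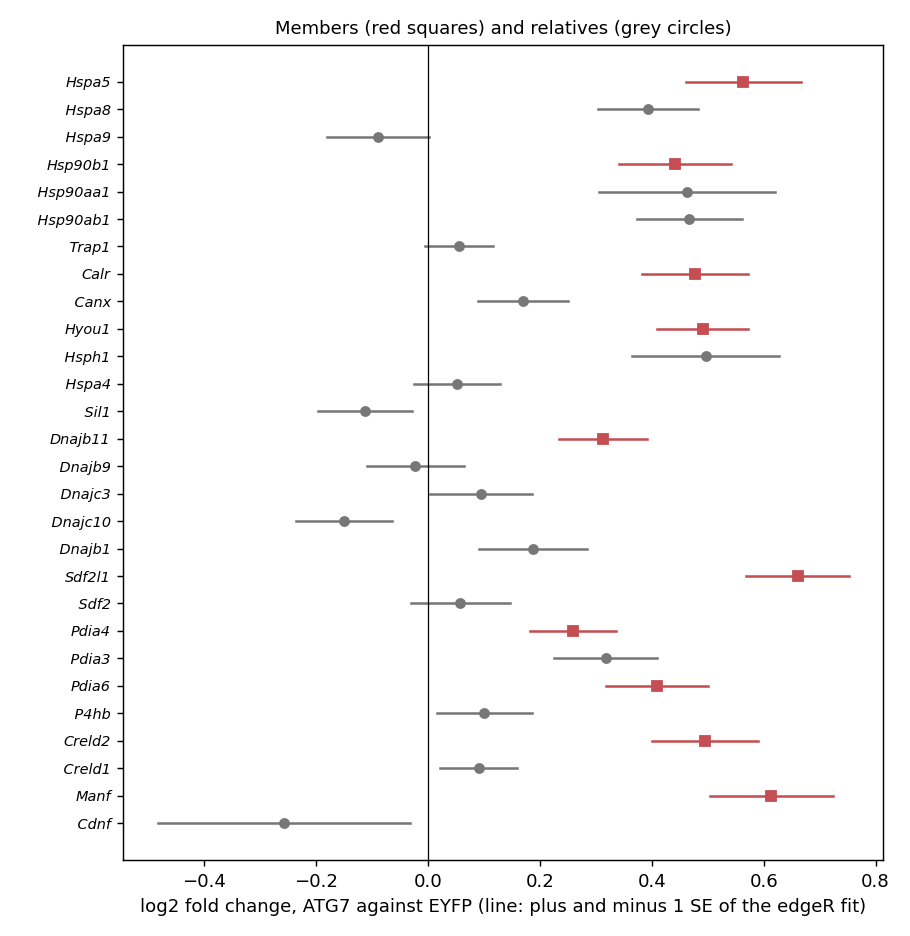
Log2 fold change of ATG7 against EYFP with lines of 1 SE on each side from the edgeR fit, for the 10 ER-lumen chaperone genes (red squares), each followed by its relatives (grey circles). Hspa8, Hsp90aa1, Hsp90ab1, Hsph1 and Pdia3 lie at 0.32 to 0.50, and the other relatives lie between -0.26 and 0.19.

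Cytosolic heat-shock chaperones had positive values in 12 of 12 genes, with a median log2 fold change of 0.43. Over all genes tested, 9439 of 19199 values were positive. Groups did not overlap in 5 of the 12, all higher in ATG7, where 6.33% of all genes tested were arranged that way. None had an adjusted p under 0.05 with edgeR, 6 had an unadjusted p under 0.05, where 12% of all genes did, and DESeq2 gave 3. The edgeR count was 2 with no filter on low counts and 1 without ATG7 2. Hsp90ab1 had the smallest p (0.47, SE 0.09, adjusted p = 0.0509). The median was 0.26 without ATG7 1. Mitochondrial chaperones had a median of -0.01 over 8 genes, led by Hspe1, the co-chaperonin (0.36, adjusted p = 0.163).

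Other groups differed between the same libraries, and their part in the values of the ER chaperones was not tested. Of 14 clock output and cold-inducible genes, 7 had an adjusted p under 0.05 (1 higher, 6 lower, edgeR): Dbp fell from 67.1 ± 15.8 to 20.4 ± 3.77 CPM (log2 -1.72, adjusted p = 0.0118), Nr1d1 from 27.9 ± 7.58 to 8.13 ± 1.41 CPM (-1.78, adjusted p = 0.0105), and Hlf from 50.3 ± 2.22 to 29.8 ± 1.70 CPM (-0.76, adjusted p = 0.0025). That count was 3 without EYFP 4 or ATG7 2 and 4 without ATG7 3. The 12 immediate-early genes, a sign of cell activation that dissociation can also raise, had positive values in 12 of 12 and a median of 0.19, with 0 at an adjusted p under 0.05 and 0 at an unadjusted one, and DESeq2 gave 0. That median was 0.10 without EYFP 2 and 0.30 without EYFP 4. Egr2 led them (0.47, adjusted p = 0.427).

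Of the marker lists of other cells, that of T and NK cells was higher without overlap between the groups in 8 of 8 genes, where 6.33% of all genes were. Their summed level was 3.41 to 8.33 CPM in EYFP and 11.7 to 28.5 in ATG7. By edgeR 0 of the 8 had an adjusted p under 0.05, 8 had an unadjusted p under 0.05, where 12% of all genes did, and DESeq2 gave 6. The edgeR count was 2 with no filter and 1 without EYFP 1. B and plasma cell markers summed to 241 to 276 CPM in EYFP and 215 to 275 in ATG7. Choroid plexus markers had negative log2 fold changes in 10 of 10 genes (median -0.26, or -0.15 without EYFP 2), 2 of them at an unadjusted p under 0.05 and 0 at an adjusted one by edgeR or DESeq2. Endothelial and mural markers had positive values in 8 of 8 (median 0.22, 1 at an unadjusted p under 0.05, 0 at an adjusted one by edgeR or DESeq2) and summed to 443 to 732 CPM in EYFP and 575 to 982 in ATG7. Their median was 0.10 without EYFP 4, 0.41 without ATG7 2 and 0.09 without ATG7 3. Neuronal markers summed to 30.4 to 163 and 39.0 to 61.9 CPM. No marker in these lists was at 0 in every library, and the part of these cells in the ER chaperone values was not tested.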

How the data were processed

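The authors deposited raw read counts per Ensembl gene, 7 columns matched by name to the libraries, with 0 unmatched columns. The submitters' processing notes name fastp 0.20.1, HISAT2 2.0.5, featureCounts and GRCm38 (mm10); strand handling and annotation release are not given in the sources used here. Symbols came from GENCODE M21 (55141 of 55401 identifiers). Of 2 identifiers named Ddit3, the one with the longer exons was used.

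ATG7 was compared with EYFP with edgeR 4.0.16 (R 4.3.3): TMM factors, filterByExpr, robust quasi-likelihood test, two-sided, no covariate, Benjamini-Hochberg adjustment over 19199 genes, checked on simulated data. CPM are scaled by TMM, SE is the absolute log2 fold change over the root of F, and a prior count of 2 was added for log2 CPM. DESeq2 1.42.0 was the alternative test, beside other scalings, filters, a replicate block and leaving out each library. No pair of libraries agreed within sampling noise. Floors cover counting error only.

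The 10 genes, the lists and the tests were chosen with earlier results of these data known. Named genes were the 10, those with the smallest p in each list (up to 3 past the threshold, otherwise 1), Dnajb9, Xbp1, Ddit3, Herpud1, Canx, the 5 nearest profiles (1 of these is not reported here), Atg7, Xist, Ddx3y and Ttr. Relatives and overlapping genes were named after their values were seen. Promoter windows are from RefSeq (GRCm38.p6), matched by symbol, and protein sequences were not used here.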

Additional observations from a re-analysis of the deposited data

Results flagged for a closer look

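Within the EYFP group, the gap of the most distant library was set against Dixon's 95% limit for 58 genes and sums, at which chance gives about 1 in 20, or 2.9 of 58, and 2 were beyond it. Both came from EYFP 3, far from the other EYFP libraries: Xist at 938.5 CPM, where the others were at 0.327 to 0.574, and Ddx3y at 27.6 CPM, where the others were at 153.0 to 168.7. Both genes had been named because EYFP 3 stood apart, so their flags followed from that choice and cannot be set against 2.9. For the ER chaperones EYFP 3 was not beyond Dixon's limit in any of the 10 genes, and it was the highest EYFP library in 5 of them.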

How the results depend on the processing

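The 10 ER-lumen chaperone genes had positive log2 fold changes under all 15 settings tried, with medians from 0.39 (without ATG7 1) to 0.53 (without ATG7 2). They were chosen on this contrast and the groups did not overlap in any of them, so the constant sign is no evidence for it. The number of genes with an adjusted p under 0.05 was 145 with edgeR as described, 297 without a filter (234 higher, 63 lower), 572 with DESeq2 (404 higher, 168 lower), 0 with the replicate block, and 28 to 277 when 1 library was left out. It was 277 without EYFP 1, 94 without EYFP 2, 30 without EYFP 4 or ATG7 3, and 28 without ATG7 2. The clock list went from 1 higher and 6 lower to 1 higher and 10 lower with DESeq2 and to 0 with the block. For the 118 genes of the ER pathway lists the count was 0 under every other setting and 3 with DESeq2. Whether the replicate numbers pair the libraries was not settled. The deviations of same-numbered libraries correlated at -0.06, -0.18 and 0.07 across genes, where those of other pairs ran from -0.15 to 0.22. The block took every call, but it leaves few degrees of freedom with so few libraries, so that loss cannot decide the question. Of the 517 values of named genes other than these 10, 488 kept direction and side, 13 lost and 9 gained the threshold, and 7 changed sign: Dnajb9 (positive without EYFP 2 or ATG7 2, leave-one-out range -0.0745 to 0.0552), Ddit3 (negative without EYFP 2 or EYFP 3, -0.0145 to 0.103), Atg7 (positive without ATG7 1, -0.0830 to 0.0351), Ddx3y (negative without EYFP 3, -0.173 to 0.335) and Dnajc3 (negative without ATG7 1, -0.00517 to 0.167). The cause was not tested. The parts of library spread and of depth in these values were not separated. Derl3 and Cdnf were at low CPM and so rest on fewer counts, and Derl3 also ranged from 1.42 to 4.37 CPM within ATG7.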

Other observations

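The exact ERSE match, a property of the promoter window and not of expression, was present in 37 genes, 21 of which were tested, 5 of them among the ER-lumen chaperones. For the other 16 the median log2 fold change of ATG7 against EYFP was -0.05, from -0.70 to 1.18 (Derl3), with 6 values above 0. With edgeR 0 of the 16 had an adjusted p under 0.05, and 2 had an unadjusted p under 0.05, where 12% of all genes tested did. The groups did not overlap, with ATG7 higher, in 3 of the 16, against 6.33% of all genes tested. This list was drawn up after the values had been seen.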
